A study of Mus musculus with 10 samples.

Results

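The genes that encode the proteins of the cytosolic ribosome were compared with one another in the developing mouse neocortex. The members were the genes that the authors' table categorises as Rpl or Rps, without Ankrd44, which carries the category Rpl but encodes no ribosomal protein and lay between 11.3 and 23.0 TPM. This gave 68 of 6147 genes, 39 of the large subunit and 29 of the small one. They cover 65 of 80 canonical ribosomal protein genes (37 of 47 large, 28 of 33 small) and 3 of 9 paralogs, namely Rpl7l1, Rpl22l1 and Rps27l. The source was frozen neocortex of CD1 wild type, an outbred mouse strain. The stages were days E12.5 and E14 of gestation, then E15.5 and E17, and the day of birth (P0), and each had 2 libraries, 10 in all. Tissue was pulverised cold in detergent buffer, the lysate was spun clear, RNA was extracted in TRIzol LS, and polyadenylated RNA was made into strand-specific libraries. The labels call the libraries biological duplicates and do not say how many animals each one holds, so p-values measure the spread between these libraries.

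A ribosome is built from a small subunit, which reads the mRNA, and a large subunit, which joins amino acids and holds the exit tunnel for the new protein. Each canonical protein, apart from those of the flexible stalk, is present in a single copy per ribosome, and free ribosomal proteins are quickly degraded. Their mRNAs typically begin with a run of pyrimidines (a terminal oligopyrimidine tract), through which growth signals control their translation together. In the developing cortex the early cells are mostly dividing progenitors and the later ones mostly neurons.

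Values were TPM, a length-normalised share of the RNA in a library. The 68 genes held between 6.04% and 9.71% of all TPM. The E17 libraries stood apart from each other: the median member was at 941 TPM in replicate 1 and 1259 in replicate 2, while the other 8 libraries lay between 1065 and 1364. The forebrain genes Emx1 and Pax6 were present in every library. Summed markers of dividing cells (14 genes of 16 listed) went from a mean of 1914 TPM at E12.5 to 212 at P0, and those of neurons (12 of 12) from 2672 to 11050. Markers of other tissues changed as well. Embryonic red cell genes (3 of 10 listed, led by Hbb-y) summed to a mean of 4409 TPM at E12.5 and 1928 at E14, and to between 2.04 and 9.84 in the 6 later libraries. Choroid plexus genes (Ttr and Clic6, 2 of 8) had a mean of 377 at E12.5 and 1461 at E14, and lay between 3.07 and 5.26 later. Meningeal genes (6 of 6, led by Igf2) had means of 896 and 722, and lay between 40.3 and 134 later. In those later libraries Igf2 alone was between 38.0 and 127 TPM, and no other gene of this list passed 2.14. These sums thus differed from E12.5 to E14 as well as from E14 to E15.5, and their part in the results was not tested. In bulk tissue, fewer cells of a type and less RNA per cell cannot be told apart.

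The members were not equally abundant. Mean TPM over the 10 libraries ran from 0.418 to 2937, with a median of 1093 in the large subunit and 1451 in the small one. At least 1000 TPM was reached by 45 members (21 Rpl and 24 Rps). The highest were Rps29, a small zinc-binding protein of the small subunit head, at 2937 TPM, and Rplp1, an acidic protein of the stalk that recruits elongation factors, at 2773. Rps12 followed at 2537, Rps15a at 2449 and Rpl39, the shortest member with 153 coding bases, at 2241. Only 5 members were under 300 TPM. They were the 3 paralogs (Rps27l at 194, Rpl22l1 at 269 and Rpl7l1 at 167), Rpl13a at 64.9 and Rpl24 at 0.418. Between 0.0731 and 0.637 TPM in the 10 libraries, Rpl24 failed the minimum mean of 1 TPM, so 67 members were tested.

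Those low entries differ in their annotation. In the GENCODE annotation, 71.5% of the exon bases of Rpl24 (GRCm38, chr16:55966275-55971435, plus strand, 6 exons) also lie in exons of another gene on the same strand, Gm28037. For Rpl13a (chr7:45125558-45128761, minus strand, 8 exons) the figure is 59.3%, shared with Gm45713 and Mir5121. Only 1 other member passed 50%: Rps10, with 53.6% shared with the readthrough gene RPS10-NUDT3, and its mean was 1086 TPM. How the authors treated reads that fall in overlapping genes was not given in the sources used here, so the levels of these 3 genes are uncertain.

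To remove the course that all members share, each gene's log2(TPM + 1) was taken relative to the median of the 67 tested members in the same library, here called the relative level. The large subunit genes lay below the small subunit genes in all 10 libraries. The difference between the subunit medians (large minus small) was -0.47 ± 0.051 at E12.5 (log2, SD, n = 2), then -0.40 ± 0.019 at E14, -0.40 ± 0.023 by E15.5, -0.40 ± 0.095 at E17 and lastly -0.40 ± 0.073 at P0. It ran from -0.50 to -0.33 over the single libraries. From E12.5 to P0 the median relative change was -0.15 over 38 Rpl genes and -0.12 over 29 Rps genes. Of the changes, 32 of 38 and 22 of 29 were negative, and their SD was 0.32 and 0.28.

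**Figure D1:**
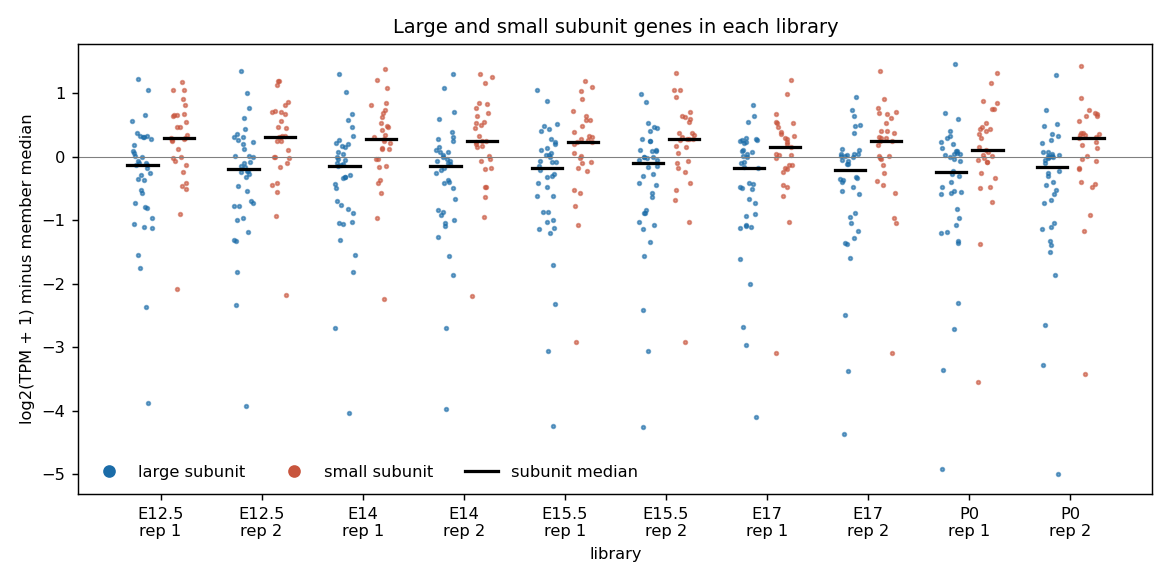
Relative level, log2(TPM + 1) minus the member median, of the 38 Rpl (blue) and 29 Rps (red) genes tested, by library; black bars are subunit medians. The Rpl bar lies under the Rps bar in all 10 libraries, and a few genes, down to Rpl13a, lie far under the rest.

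The order of the members was largely kept. Across the 67 members, relative levels at E12.5 and P0 had a Spearman rho of 0.951, a description across genes that share the same libraries. The SD of relative levels within a library nevertheless went from 0.886 ± 0.014 (n = 2) at E12.5 to 1.09 ± 0.014 at P0. Without the 3 paralogs and Rpl13a it was 0.621 ± 0.012 and 0.677 ± 0.020, a smaller difference between the stages.

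The whole interval from E12.5 to P0 was then tested for members whose relative level changed. In limma on all 6048 genes, with Benjamini-Hochberg adjustment, 19 of 67 members (28.4%) changed at an adjusted p under 0.05, against 56.7% of all genes tested. Of these, 2 were higher at P0 (Rpl38 and Rps29) and 17 lower, where 27% and 29.7% of all genes were. Both subunits contributed, with 11 of 38 Rpl and 8 of 29 Rps genes. Changes had an SD of 0.304 over the members and 1.20 over all genes, and 45 members lay within 0.2 of the members' own median change of -0.14.

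The balance of higher and lower calls depended on the centre. The median member by level is not the median member by change, and 54 of 67 relative changes were negative. Setting each member to its own mean before taking the median, a choice made after seeing the data, gave 9 higher and 7 lower (56.5% of all genes called). Centring on the member mean gave 10 and 6 (55%), on the Rpl median 4 and 13 (57.8%) and on the Rps median 4 and 7 (51.8%). Correcting for GC content and coding length gave 12 and 8 (75%). Over 6 centres (the main median, these 4 and the median of all genes, without the length and GC correction), 6 members were lower each time, among them Rps27l, Rpl13a, Rpl7l1, Rpl22l1 and Rpl35a, and Rpl38 was higher each time. Without the 2 E17 libraries the count was 40 of 67 (6 higher, 34 lower), against 81% of all genes. That split depended on the centre too: with each member also set to its own mean it was 26 (13 higher, 13 lower), against 79.9%. On TPM as deposited, with no centre, 38 of 67 members were lower and 0 higher, against 51% and 27.1% of all genes (78.2% either way). The 0 refers to limma at the adjusted threshold; median-of-ratios scaling gave 2 higher and 7 lower (75.6% of all genes called).

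**Figure D2:**
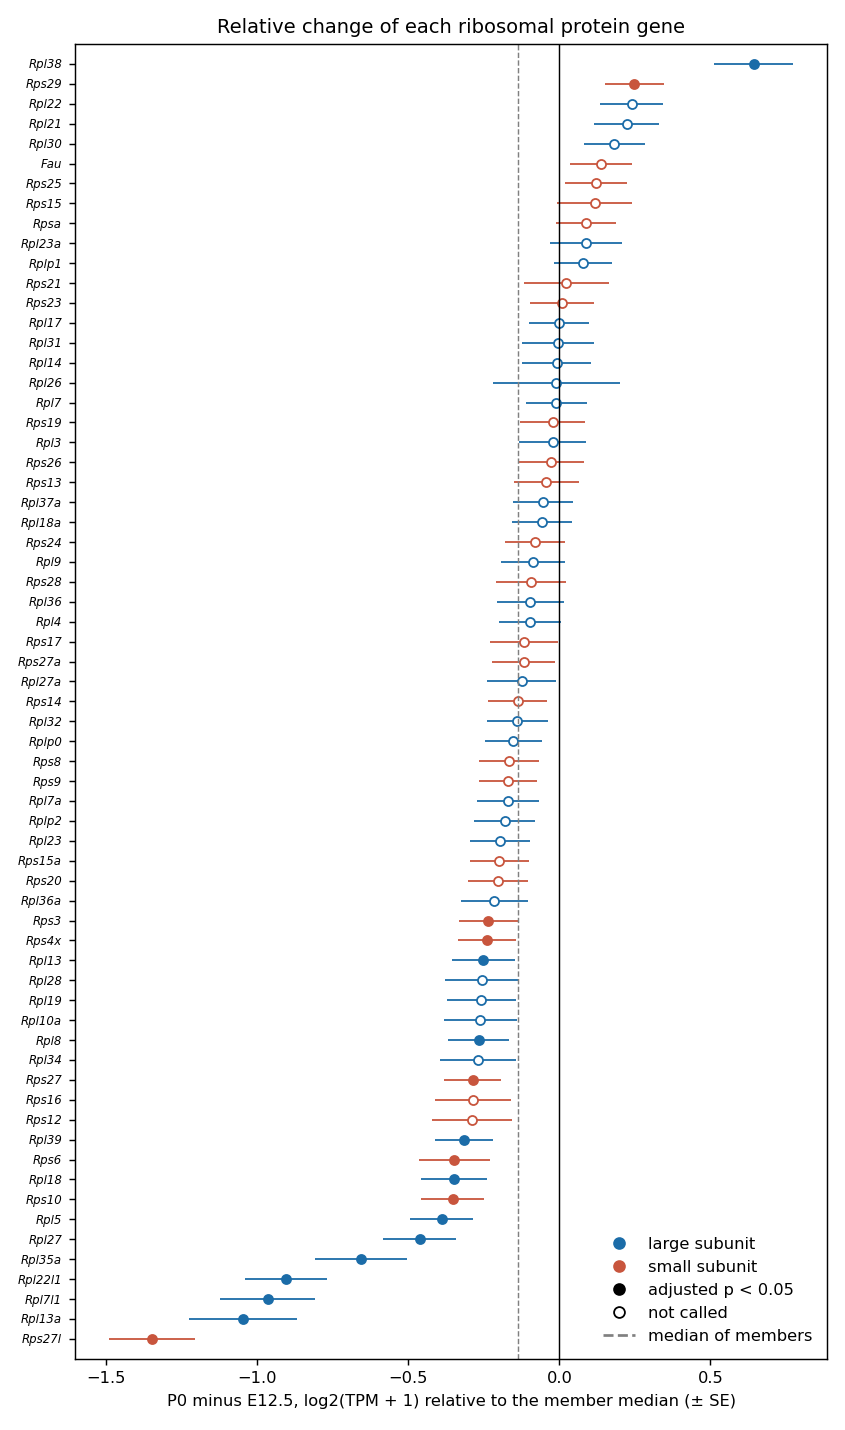
Change in relative level from E12.5 to P0 (log2, ± SE from limma) of 65 of the 67 members tested, sorted; blue is the large and red the small subunit, filled points have an adjusted p under 0.05. Most members lie within a narrow band around the dashed median of -0.14, with Rps27l, Rpl13a, Rpl7l1, Rpl22l1 and Rpl35a below it and Rpl38 above.

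All 3 paralogs fell, and each was also lower against its parent gene at P0. Rps27l is a p53-responsive paralog of Rps27, Rpl22l1 a paralog of Rpl22, and Rpl7l1 a paralog of Rpl7 that is linked to ribosome assembly. Rps27l was at 298 and 275 TPM at E12.5, 287 and 294 at E14, 168 and 167 at E15.5, 110 and 147 at E17, and 94.9 and 98.2 at P0. The first 4 libraries were all above the last 6, and those of E15.5 above those of E17 and P0. Its relative level fell by 1.35 from E12.5 to P0 (log2, SE 0.14, limma adjusted p = 3.62e-08), the largest fall of any member.

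Rpl22l1 was at 377 and 355 TPM at E12.5, 385 and 373 at E14, 257 and 238 at E15.5, 146 and 224 at E17, and 170 and 168 at P0. The E17 pair straddled P0, and every later library was below those of E12.5 and E14. Its relative level fell by 0.90 (SE 0.14, limma adjusted p = 6.16e-06). Rpl7l1 was at 247 and 246 TPM at E12.5, 210 and 208 at E14, 153 and 151 at E15.5, 119 and 120 at E17, and 108 and 109 at P0. In TPM every stage was below the one before with no overlap. In relative level E17 replicate 1 (-2.97) lay above both E15.5 libraries (-3.06 and -3.07). The fall in relative level was -0.97 (SE 0.16, limma adjusted p = 1.63e-05).

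Each paralog also made up a smaller part of its parent's level at P0. Rps27l amounted to 14.3% ± 0.73 of Rps27 at E12.5 (SD, n = 2), then 12.7% ± 0.053 at E14, 8.66% ± 0.16 by E15.5, 8.98% ± 0.25 at E17 and lastly 6.82% ± 0.58 at P0, a ratio 2.10-fold lower at the end. Rpl22l1 amounted to 28.9% ± 0.85 of Rpl22 at E12.5, then 30.2% ± 1.69 at E14, 17.8% ± 0.64 by E15.5, 15.1% ± 3.08 at E17 and lastly 13.0% ± 0.21 at P0, 2.22-fold lower. Rpl7l1 amounted to 15.47% ± 0.045 of Rpl7 at E12.5, then 12.4% ± 0.070 at E14, 8.93% ± 0.12 by E15.5, 8.68% ± 2.64 at E17 and lastly 7.94% ± 0.011 at P0, 1.95-fold lower. For all 3 pairs the P0 ratios were under those of E12.5 in every library, and E14 to E15.5 was the step with the largest drop. Among the parents, the relative level of Rps27 changed by -0.29 (SE 0.094, limma adjusted p = 0.0127), that of Rpl22 by 0.24 (adjusted p = 0.056) and that of Rpl7 by -0.01 (adjusted p = 0.944), and differences between the parents were not tested. Rps27 was called lower under 2 of the 6 centres and Rpl22 higher under 4. With each member set to its own mean first, limma gave -0.14 (adjusted p = 0.208) for Rps27 and 0.38 (adjusted p = 0.00314) for Rpl22. The markers of dividing, red, choroid plexus and meningeal cells given above moved between the same stages, and their part in the fall of the paralogs was not tested.

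**Figure D3:**
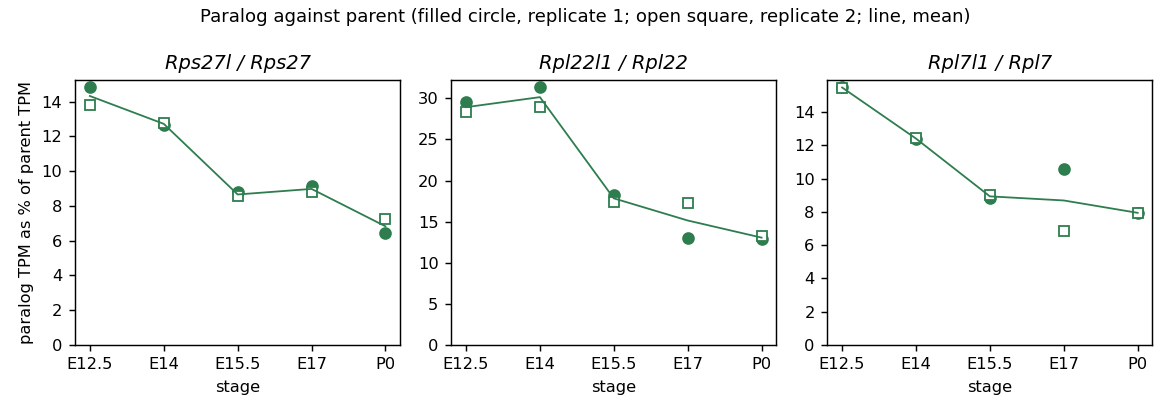
TPM of each paralog as a percent of its parent gene's TPM in the 10 libraries, by stage (filled circle, replicate 1; open square, replicate 2; line, stage mean). Each ratio is lower in both P0 libraries than in both E12.5 libraries, and the E17 replicates of Rpl7l1 and Rpl22l1 lie apart.

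Paralog and parent can be told apart in their coding sequence, which matters for counts that depend on where a read fits. The coding sequences of Rps27 (GRCm38, gene at chr3:90212522-90213651, minus strand) and Rps27l (chr9:66946086-66949516, plus strand), without the stop codon and from the GENCODE annotation, are shown with every base that differs in capitals:
Rps27: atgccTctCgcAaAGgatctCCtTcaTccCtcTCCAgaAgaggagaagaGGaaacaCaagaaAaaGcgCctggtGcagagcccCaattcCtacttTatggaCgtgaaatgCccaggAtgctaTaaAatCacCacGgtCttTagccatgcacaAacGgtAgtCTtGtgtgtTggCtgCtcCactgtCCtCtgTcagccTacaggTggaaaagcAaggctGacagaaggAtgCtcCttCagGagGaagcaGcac
Rps27l: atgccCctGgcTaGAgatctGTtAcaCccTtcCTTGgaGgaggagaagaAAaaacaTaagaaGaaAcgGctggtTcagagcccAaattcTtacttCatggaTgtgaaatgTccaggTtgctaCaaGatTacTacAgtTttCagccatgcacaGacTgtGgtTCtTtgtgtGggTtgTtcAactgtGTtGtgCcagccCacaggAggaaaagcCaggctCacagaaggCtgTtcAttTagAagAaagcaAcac
Of 252 aligned bases, 192 were identical (76.2%) and 60 differed, and the longest identical run was 11 bases. Rpl22 and Rpl22l1 were identical at 264 of 363 aligned coding bases (72.7%), and Rpl7 and Rpl7l1 at 456 of 704 (64.8%). No pair shared a stretch of 50 coding bases. Other annotated genes did share such stretches with them. The share was 100% for Rps27 and 48.3% for Rps27l, 31.0% for Rpl22 and 82.6% for Rpl22l1. It was 77.5% for Rpl7 and 21.9% for Rpl7l1. Reads from those stretches may not be told apart from reads of the other genes, which limits the ratios of paralog to parent.

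Among the canonical genes Rpl13a and Rpl35a departed furthest downward, mostly at the last step. Rpl13a encodes a protein that in myeloid cells also leaves the ribosome to silence inflammatory mRNAs. It was at 85.4 and 81.0 TPM at E12.5, 82.1 and 84.9 at E14, 67.3 and 65.3 at E15.5, 54.1 and 60.2 at E17, and 36.1 and 32.5 at P0. The P0 libraries were below all others. Its relative level fell by 1.05 from E12.5 to P0 (SE 0.18, limma adjusted p = 3.15e-05), and between E17 and P0 it fell by 0.72 (SE 0.18, limma adjusted p = 0.0112).

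Rpl35a, a large subunit protein whose human gene is mutated in Diamond-Blackfan anaemia, was at 435 and 500 TPM at E12.5, 466 and 456 at E14, 393 and 498 at E15.5, 307 and 415 at E17, and 225 and 291 at P0. Both P0 libraries were the lowest, and they were 0.44 apart in relative level. The change was -0.66 from E12.5 to P0 (SE 0.15, limma adjusted p = 0.000857) and -0.48 from E17 to P0 (SE 0.15, limma adjusted p = 0.0464). Both calls for the last step are limited, since without P0 replicate 1 no member passed at that step.

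Rpl27, a large subunit protein, changed by -0.46 (SE 0.12, limma adjusted p = 0.00245); it missed the threshold when centred on the member mean (adjusted p = 0.0527). Rpl5, which with Rpl11 carries 5S rRNA into the large subunit and can bind Mdm2, changed by -0.39 (SE 0.10, limma adjusted p = 0.00304). Rpl5 was called under 2 of the 6 centres (adjusted p = 0.051 with own means), and with the length and GC correction it stood at 0.03, so that its direction turned.

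A further 9 lower members changed by between -0.35 and -0.23. They were Rps10, Rpl18, Rps6, Rpl39, Rps27, Rpl8, Rpl13, Rps4x and Rps3. Rps6 is the protein phosphorylated by S6 kinase downstream of mTOR, and Rps3 forms part of the mRNA entry channel. The libraries of E12.5 and P0 did not overlap in any of the 9, but the calls depended on the centre. Rpl8, Rpl13, Rps4x and Rps3 were called under 1 of the 6 centres, the member median, and Rps10, Rpl18, Rps6, Rpl39 and Rps27 under 2.

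Rpl38 departed in the other direction. It encodes a large subunit protein that the mouse embryo needs for the translation of a subset of Hox mRNAs and normal axial patterning. It was at 851 and 861 TPM at E12.5, 1014 and 1011 at E14, 1056 and 1148 at E15.5, 707 and 1294 at E17, and 1083 and 1239 at P0. Apart from E17 replicate 1, in which most members were low, every later library was above both of E12.5. Its relative level rose by 0.64 from E12.5 to P0 (SE 0.13, limma adjusted p = 0.00023), and over 28 alternatives it lay between 0.51 and 0.81, with each adjusted p at or under 0.0234. On TPM as deposited it was 1.36-fold higher at P0 (adjusted p = 0.0702, not called). Every stretch of 50 coding bases in Rpl38 also occurs in another annotated gene, so its reads and those of copies may not be told apart.

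Rps29 was at 2635 and 2865 TPM at E12.5, 3535 and 3214 at E14, 2921 and 3175 at E15.5, 2161 and 3214 at E17, and 2794 and 2859 at P0. The P0 libraries lay within the E12.5 range in TPM, while in relative level they were above it (1.32 and 1.42 against 1.05 and 1.20). The relative level rose by 0.25 (SE 0.097, limma adjusted p = 0.0328), and quantile normalization turned it to -0.06. A further 7 of 28 alternatives lost the call, among them the median of all genes as centre (adjusted p = 0.236) and the length and GC correction (adjusted p = 0.291). On TPM as deposited the change was 0.04 (adjusted p = 0.826). Every 50-base stretch of the Rps29 coding sequence also occurs elsewhere.

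**Figure D4:**
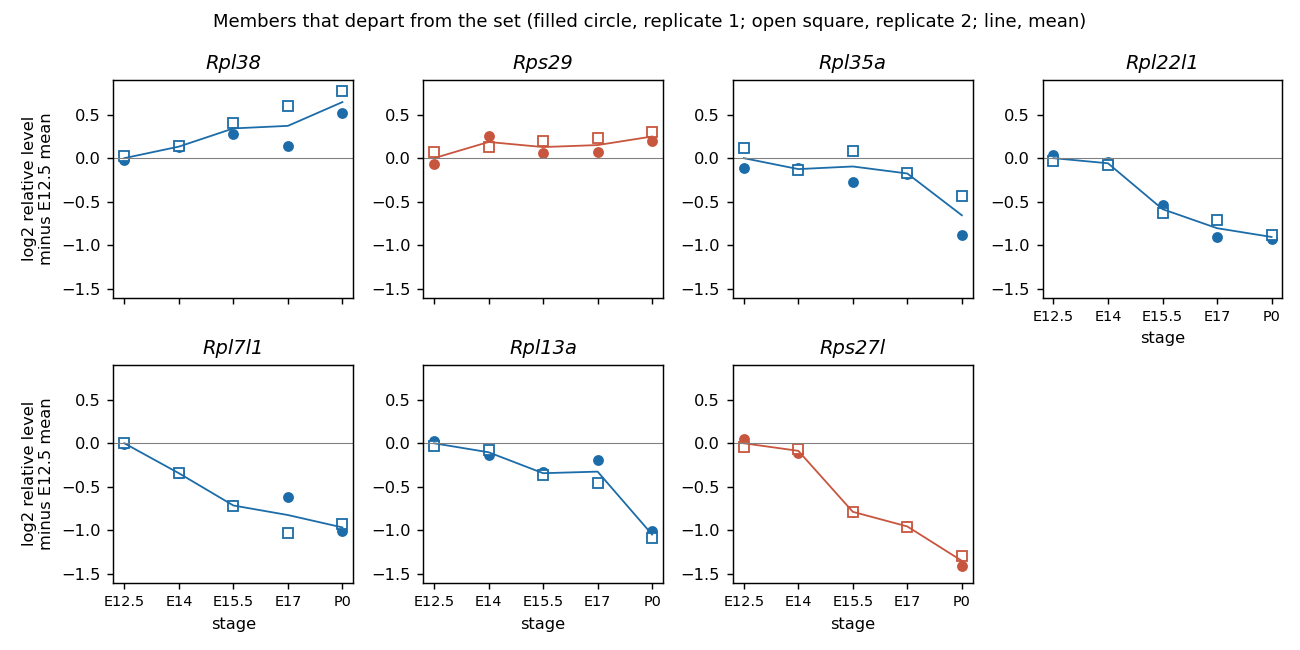
Relative level, with the E12.5 mean set to 0, of 7 members by stage (filled circle, replicate 1; open square, replicate 2; line, mean): 6 of the 7 called under all 6 centres, and Rps29. The paralogs drop by E15.5, Rpl13a and Rpl35a mainly between E17 and P0, and Rpl38 rises to a mean of 0.64.

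In the main model over all 10 libraries, few members were called for steps between neighbouring stages, and the counts depended on the libraries fitted. From E12.5 to E14 limma called 0 of 67 (0.149% of all genes), with 1 at an unadjusted p under 0.05. With only the stages compared in the fit it called 12 (58.7%), and 27 from E14 to E15.5 (71.8%). Both steps that involve E17 had 0 calls in such fits (1.14% of all genes into that stage, 0.893% out of it). Why these counts differ was not tested. In the main model limma called 3 from E14 to E15.5, all lower (11.5% of all genes were lower, 23.3% changed). They were Rps27l (-0.70, SE 0.14, limma adjusted p = 0.000817), Rpl22l1 (-0.53, SE 0.14, adjusted p = 0.00598) and Rplp1. The count was 1 without E14 replicate 1 (14.7% of all genes), without E14 replicate 2 (14.5%) or without E15.5 replicate 2 (13.3%), and 15 (4 higher, 11 lower) without either E17 library (59.8%). From E15.5 to E17 1 was called, lower (9.8% of all genes changed and 0.215% were lower): Rps14, a small subunit protein of the platform. Its relative level was 0.90 and 0.94 at E15.5 and 0.53 and 0.70 at E17, a change of -0.30 (SE 0.096, limma adjusted p = 0.0471). That call was lost when any single library outside E17 was left out, and 15 members were called when E17 replicate 1 was left out (24.5% of all genes) and 15 when replicate 2 was (82.6%). From E17 to P0, 3 of 67 were called (10.4% of all genes), with Rplp1 higher (2.7% of all genes) and Rpl13a and Rpl35a lower (7.66%). That count was 0 without P0 replicate 1 (2% of all genes), 7 without E17 replicate 1 (47.6%) and 27 without E17 replicate 2 (69.9%). Over all stages at once, 20 of 67 members varied (57.2% of all genes).

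No stalk gene passed the test over the whole interval, but Rplp1 was lower in between. Rplp0 is the base of the stalk, and Rplp1 and Rplp2 are its acidic arms. Rplp1 was at 2969 and 3187 TPM at E12.5, 3358 and 3330 at E14, 2660 and 2517 at E15.5, 1657 and 2414 at E17, and 3052 and 2590 at P0. In relative level both libraries of E15.5 (1.05 and 0.98) and of E17 (0.81 and 0.94) were below those of every other stage. The change was -0.28 from E14 to E15.5 (SE 0.095, limma adjusted p = 0.0336) and 0.49 from E17 to P0 (SE 0.095, limma adjusted p = 0.00192), while that from E12.5 to P0 was 0.08 (adjusted p = 0.501). Rplp0 (-0.15, adjusted p = 0.181) and Rplp2 (-0.18, adjusted p = 0.134) did not pass.

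Other structural groups, from lists, were mixed from E12.5 to P0. Among 6 of 7 genes at the exit of the peptide tunnel, 1 was lower (Rpl39, -0.32, SE 0.096, limma adjusted p = 0.00749) and 5 did not pass (Rpl17, Rpl19, Rpl23a, Rpl26 and Rpl31), with a median of -0.01. The Rpl39 call was lost in 7 of 28 alternatives, 4 of the other 5 centres among them (-0.17, adjusted p = 0.141 with own means), which leaves 0 of 6. Of 13 genes of the small subunit head, 1 was higher and 2 lower, with a median of -0.12, and of 15 of the body 4 were lower, with a median of -0.14. Rps27a and Fau, which encode ribosomal proteins fused to ubiquitin or a ubiquitin-like protein, gave -0.12 and 0.14 and did not pass (0 of 2 in limma). Of the 27 families shared by bacteria, archaea and eukaryotes 1 was higher and 5 lower (median -0.12), and of the 37 canonical genes outside them 1 was higher and 9 lower (median -0.12). The median over all members was -0.14 and over all genes -0.07. Of all genes tested, 27% were called higher and 29.7% lower, and the counts above were not read as a trait of any group.

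The libraries of a stage differed most at E17 and P0, and not evenly over the members. The median absolute gap in relative level between replicates was 0.043 at E12.5, then 0.035 at E14, 0.038 by E15.5, and 0.15 at E17 with 0.10 at P0. Rpl26, a protein near the tunnel exit that also acts on p53 mRNA, had the widest gap, with 233 TPM in E17 replicate 1 and 649 in replicate 2, or 1.06 in relative level. At P0 Rps12 had the widest, with 2489 and 1653 TPM, or -0.52. Across the 67 members the E17 gap and the P0 gap had a Spearman rho of 0.588, and the E17 gap and the change from E12.5 to P0 one of 0.496. These are descriptions across genes measured in the same libraries, and the part of library quality in the changes was not tested.

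**Figure D5:**
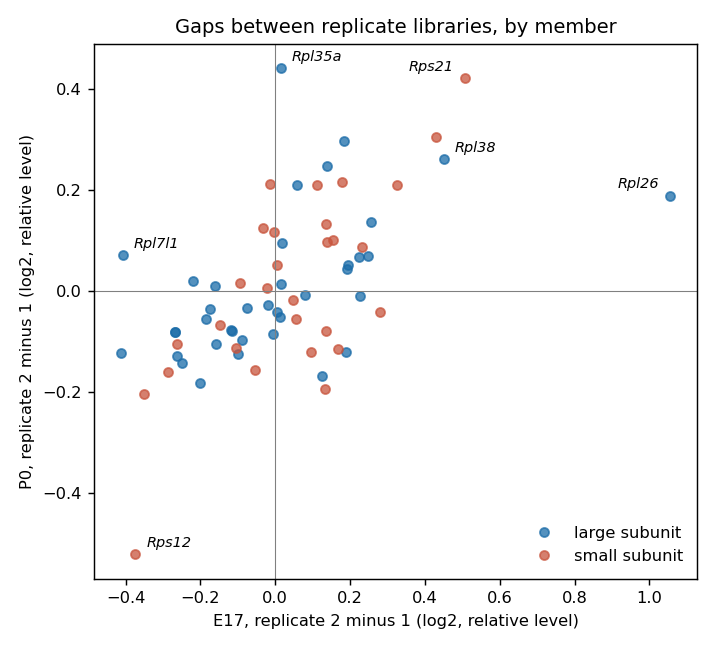
Gap between replicate 2 and replicate 1 in relative level (log2) at E17 (x axis) and at P0 (y axis) for the 67 members (blue, large subunit; red, small subunit). Members with a positive gap at E17 often had one at P0 (Spearman rho 0.588). Rpl26 had the widest gap at E17 and Rps12 the widest at P0.

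The members were also set beside features that did not choose them. Ribosomal protein genes have many processed copies in the genome, and 25 of 68 had every 50-base stretch of their coding sequence in another annotated gene. The median share was 90.8%, and 3 were under 10%, among them Rpl8 and Rps3. Among the 24 tested members with all stretches shared, 2 were higher and 5 lower from E12.5 to P0 (median -0.12), and among the other 43, 0 and 12 (median -0.15). Small nucleolar RNAs, which guide modification of ribosomal RNA, are annotated inside 24 members on the same strand. These members were counted as hosts, whether the small RNA lay in an intron or an exon. Of these hosts 0 were higher and 6 lower (median -0.17), and of the 43 tested non-hosts 2 and 11 (median -0.12). The 0 higher calls in both comparisons are limma calls at the adjusted threshold. Over all genes tested the shares were 27% higher and 29.7% lower. A part of shared stretches or of hosting in the changes was not tested. The relative change had a Spearman rho of -0.15 with coding length and 0.10 with coding GC content across 67 members.

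Start regions were compared because the members are known for a shared pyrimidine tract there. Of 68 members, 49 matched the RefSeq promoter table (GRCm38.p6, 27025 genes). In the 100 bases around the start (50 before and 50 after), the pyrimidine motif CTTTCC on the sense strand was in 15 of 49 members (30.6%) and in 5.43% of all genes, and CTTTTC in 6 (12.2%) against 4.32%. The ETS-type motif CGGAAG was in 10 (20.4%) against 5.92%, and TATAA in 7 (14.3%) against 7.97%. On both strands the shares were 34.7% against 10.3% for CTTTCC and 32.7% against 10.4% for CGGAAG. The windows from 40 bases before to 25 bases from the start are printed for the riser Rpl38, for Rpl13a, and for the 3 paralogs with 1 parent, with CTTTCC in capitals:
Rpl38: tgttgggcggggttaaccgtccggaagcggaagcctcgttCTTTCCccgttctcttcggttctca
Rpl13a: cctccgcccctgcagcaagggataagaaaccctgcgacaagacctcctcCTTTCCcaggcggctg
Rps27: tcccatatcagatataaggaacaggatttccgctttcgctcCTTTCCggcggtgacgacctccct
Rps27l: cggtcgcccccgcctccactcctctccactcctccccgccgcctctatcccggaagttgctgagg
Rpl22l1: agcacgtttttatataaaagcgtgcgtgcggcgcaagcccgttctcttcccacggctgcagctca
Rpl7l1: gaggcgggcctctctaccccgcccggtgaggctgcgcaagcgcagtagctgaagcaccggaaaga
They lie at chr11:114668540-114668604 (plus strand), chr7:45128721-45128785 (minus), chr3:90213624-90213688 (minus), chr9:66946046-66946110 (plus), chr3:28805468-28805532 (plus) and chr17:46782632-46782696 (minus). RefSeq lists a further start for Rps27l, which is not shown. CTTTCC stands at or next to the start of Rpl38 and Rps27 and shortly after that of Rpl13a, so both a rising and a falling member hold it. It is not in the windows of the 3 paralogs, and most matched members lack it as well, since 15 of 49 hold it. Other pyrimidine runs, such as the one next to the start of Rpl22l1, are not marked. A match is a description of these letters and marks no bound site.

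Listed genes that share the pyrimidine tract or work with ribosomal proteins had lower medians than the members. The first list held 20 genes whose mRNAs also carry pyrimidine tracts. Most act in translation, but Nap1l1, Hnrnpa1 and Slc25a5 do not. Of these 20, 17 were tested relative to the member median. From E12.5 to P0 1 was higher, 7 were lower and 9 did not pass, with a median of -0.23. The highest was Eef2, the elongation factor that moves the ribosome along, at 0.33 (SE 0.11, limma adjusted p = 0.0149), and the lowest Nap1l1, a histone chaperone, at -1.28 (SE 0.13, adjusted p = 1.26e-08). Of 13 listed chaperones, importers and assembly factors of the ribosome and its proteins, not all dedicated to them, 12 were tested. Of these 1 was higher and 6 were lower, with a median of -0.39. Over all genes tested, 27% were higher and 29.7% lower, and neither list was tested as a set. Tsr2, which escorts Rps26, was highest at 0.61 (SE 0.18, limma adjusted p = 0.00646), and Ltv1, an assembly factor of the small subunit, lowest at -0.98 (SE 0.24, adjusted p = 0.00115). Rps26 itself changed by -0.03 (adjusted p = 0.841) and did not pass.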

How the data were processed

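The authors deposited 1 table of TPM values, per the file headers, with 10 library columns, all matched to samples by name (0 columns were left without one). The submitters' processing notes name STAR, Subread and the build GRCm38.p5, without versions; gene lengths, counting of shared reads and read numbers stay not given in the sources used here, so depth is unknown. Values were analysed as log2(TPM + 1); 99 genes with a mean under 1 TPM were left out, and 6048 were tested. Each library was centred on the median of the 67 tested members, and stages were compared in 1 limma 3.58.1 model (R 4.3.3, variance trend) over all 10 libraries, with Benjamini-Hochberg adjustment over all genes and a threshold of 0.05. The members, lists and comparisons were chosen with earlier results of these data known. Members were named by rule: up to 8 of each direction from E12.5 to P0, up to 2 per step, extremes of level and replicate gap, and list members. Genes were placed with GENCODE M21 for GRCm38 (6146 matched). Rack1 was on the list but is not analysed here. Python 3.11.15, pandas 2.3.3 and matplotlib 3.10.9 were used. Alternatives covered pseudocount, filter, centre, normalization, variance model, weights, samples in the fit, replicate block, a length and GC correction, threshold and each library left out. Values of a few single genes are not reported here.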

Additional observations from a re-analysis of the deposited data

How the results depend on the processing

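The values below are numbers of members called, each with the share of all genes called in parentheses. From E12.5 to P0 (19, 56.7%) they were 11 on the Rps median (51.8%), 8 on the median of all genes (75.7%), 9 without a variance trend (55.1%), 33 with array weights (76.3%), 33 with only the stages compared (76.8%), 12 at an adjusted p under 0.01 (45.5%), 40 without both E17 libraries (81%), and 10 to 40 leaving out 1 library: 10 (44.5%) and 11 (44.3%) without replicate 1 or replicate 2 of E12.5, 12 without P0 replicate 2 (45.9%) and 40 without either E17 library (81%). From E12.5 to E14 (0, 0.149%) they were 12 with array weights (60.1%), 12 with only the stages compared (58.7%), 4 without both E17 libraries (43.3%), 3 when each member was also set to its own mean (35.7%), and 0 to 4 leaving out 1 library. From E14 to E15.5 (3, 23.3%) they were 10 after quantile normalization (48%), 30 with array weights (73.1%), 27 with only the stages compared (71.8%), 7 with the length and GC correction (49.8%), 15 without both E17 libraries (59.8%), 12 with own means as well (58.6%), and 1 to 15 leaving out 1 library. From E15.5 to E17 (1, 9.8%) they were 0 on the member mean (15.4%), the Rpl median (16%), the Rps median (9.24%), without a trend (6.17%), with array weights (0.116%), with only the stages compared (1.14%), at 0.01 (3.31%) and with own means (17.3%), 11 on the median of all genes (30.2%), 6 after quantile normalization (25.9%), 2 with the length and GC correction (32.2%), and 0 to 15 leaving out 1 library. From E17 to P0 (3, 10.4%) they were 1 without a trend (7.61%), 0 with array weights (1.12%), 0 with only the stages compared (0.893%), 5 with the length and GC correction (36.6%), 1 at 0.01 (4.73%), and 0 to 27 leaving out 1 library. Over all stages (20, 57.2%) they were 11 on the member mean (58.3%), 8 on the Rps median (52%), 4 without a trend (53.4%), 43 with array weights (92.6%), 11 at 0.01 (45.5%), 43 without both E17 libraries (91.3%), 13 with own means (59.8%), 35 with both (89.9%), and 14 to 47 leaving out 1 library. On TPM as deposited from E12.5 to P0 (38, 78.2%) they were 25 at 0.01 (69%), 9 with median-of-ratios scaling (75.6%), and 22 to 55 leaving out 1 library. The cause of these differences was not tested, apart from the stricter threshold.

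Among single members, Rpl5 turned to 0.0338 with the length and GC correction and Rps29 to -0.0589 after quantile normalization. Of 728 alternative values for 26 named members, 640 kept their side of the threshold, 29 lost the call, 57 gained one and 2 turned. The 2 are those of Rpl5 and Rps29, since a turn was counted only for members called from E12.5 to P0. Members not called could change sign between alternatives without being counted as turned. Rpl26, for example, ran from -0.126 to 0.215 and Rplp1 from -0.215 to 0.248. The difference between subunit medians (mean -0.413) was -0.342 with the length and GC correction and -0.422 to -0.403 leaving out 1 library. The SD of relative levels within a library was 1.06 with that correction, 0.835 for members of at least 100 TPM and 0.956 to 0.981 leaving out 1 library. The SD of changes (0.304) was 0.287 with a pseudocount of 10 TPM, 0.283 after quantile normalization, 0.286 at 100 TPM or more, and 0.303 to 0.326 leaving out 1 library. Libraries with the same replicate number did not deviate together over all genes (correlations from -0.37 to 0.11), so the numbers were not taken as pairs. With a replicate block 17 members were called from E12.5 to P0 (55.5% of all genes) and 39 on TPM as deposited (77.3%). Over all stages it was 19 (57.2%). Depth is unknown, and 2 libraries per stage limit the precision.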
